A study of Nothobranchius furzeri with 8 samples.

Results

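The nuclear lysine tRNAs of the killifish brain are read as 2 anticodons, tRNA-Lys-CTT and tRNA-Lys-TTT, of the 49 nuclear anticodons in the deposited table. They were taken by name, leaving out the mitochondrial lysine tRNA and the E. coli tRNA-Lys that was added as a spike-in. Lys-CTT gathers 10 of the 289 nuclear tRNA genes counted in that table and Lys-TTT gathers 11. In the table of 3′ ends each anticodon is 1 entry of the 66 nuclear transcripts or clusters, Lys-CTT-1 and the cluster Lys-TTT-1/3. That table held 98.7 to 99.2% of the Lys-CTT reads and 99.1 to 99.6% of the Lys-TTT reads, and both anticodons passed the filters of every test.

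Lysine is written by the codons AAG and AAA. Lys-CTT (CUU in RNA) reads AAG, and Lys-TTT (UUU in RNA), whose first anticodon base is a heavily modified uridine, reads AAA and can also read AAG by wobble. Lysyl-tRNA synthetase, a class II enzyme carried in the multisynthetase complex of vertebrates, attaches lysine to both, so that the cell has a single charging enzyme and a pair of pools for this amino acid. Attachment takes place at the 3′ terminal A of the CCA end that all mature tRNAs share.

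Individual brains were collected from African turquoise killifish (Nothobranchius furzeri, strain MZM-0410), a vertebrate with a short life span: 4 old fish at 39 weeks post hatching (wph) and 4 young fish at 5 wph, each with 2 males and 2 females. The labels name no allele and no treatment for either age. RNA was kept acidic so that amino acids stayed bound, and then oxidized, which removes the terminal A only where it is free. A charged tRNA is therefore read with the end CCA and an uncharged one with the end CC, and the charged share is CCA over CCA plus CC. Total reads per brain were 1539158 to 3112101 in old fish and 717858 to 2683877 in young fish, the lowest being young male 2. Whole brains are mixtures, and the counts hold no marker mRNA by which the tissue could be checked. Fewer cells of a type and less tRNA per cell cannot be told apart.

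Lys-CTT made up a smaller part of the nuclear tRNA pool in old brains. It took 2.90 and 2.76% of nuclear tRNA reads in the old males and 2.81 and 2.81% in the old females, against 3.25 and 3.28% in the young males and 3.10 and 3.17% in the young females. All old brains lay below all young brains, and the old values were close together. The means were 2.82 ± 0.059% in old brains and 3.20 ± 0.078% in young brains (SD, n = 4 each). The ages were separated in this way for 17.0% of the 47 nuclear anticodons tested. The edgeR quasi-likelihood test gave a log2 change of −0.18 (SE 0.05, Benjamini-Hochberg adjusted p = 0.0353), with 6.38% of the anticodons past the threshold of 0.05 in either direction. Lys-CTT was 1 of the 2 called lower in old brains (4.26%), and 9 anticodons (19.1%) had an unadjusted p below 0.05. In the fit over the 66 transcripts or clusters, which holds nearly the same lysine reads as 1 entry per anticodon, Lys-CTT-1 had the smallest p (−0.18, SE 0.04, edgeR adjusted p = 0.0193), with 9.09% called in either direction and 4.55% called lower. Lys-CTT-1 lost this call without old male 1 (edgeR adjusted p = 0.0639), without young female 1 (0.0729) and without young female 2 (0.0511). By number of reads Lys-CTT ranked 13 to 16 among the 49 nuclear anticodons in old brains and 9 to 12 in young brains.

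The call for Lys-CTT was close to the threshold. It was also called without old female 2 (adjusted p = 0.0330) and was not called in any of the other 7 fits that left out a brain, in which the edgeR adjusted p reached 0.116. The log2 change itself stayed between −0.19 and −0.17 in all 8 of these fits. When the library size was set by the spike-in reads instead of by the nuclear tRNAs, the change was −0.053 (edgeR adjusted p = 0.985). In that fit Lys-TTT changed by 0.16 (edgeR adjusted p = 0.913). Spike-in reads per 100 nuclear Lys-TTT reads ran from 13.5 to 21.8 between brains. The spike-in fit is thus too variable to tell whether the amount of Lys-CTT fell. Counted as a part of nuclear reads, the change is relative to the other nuclear tRNAs.

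Lys-TTT, the more abundant of the pair in every brain, had no such separation. It took 4.06 and 3.74% of nuclear reads in the old males and 4.28 and 3.73% in the old females, against 3.98 and 3.82% in the young males and 3.80 and 3.78% in the young females. The old brains lay on both sides of the young ones, with the highest and the lowest value of the 8. Means were 3.95 ± 0.265% in old brains and 3.84 ± 0.090% in young brains (SD, n = 4 each), and the log2 change was 0.04 (SE 0.05, edgeR adjusted p = 0.652). Its rank by reads was 4 to 8 in old brains and 5 to 7 in young brains.

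**Figure D1:**
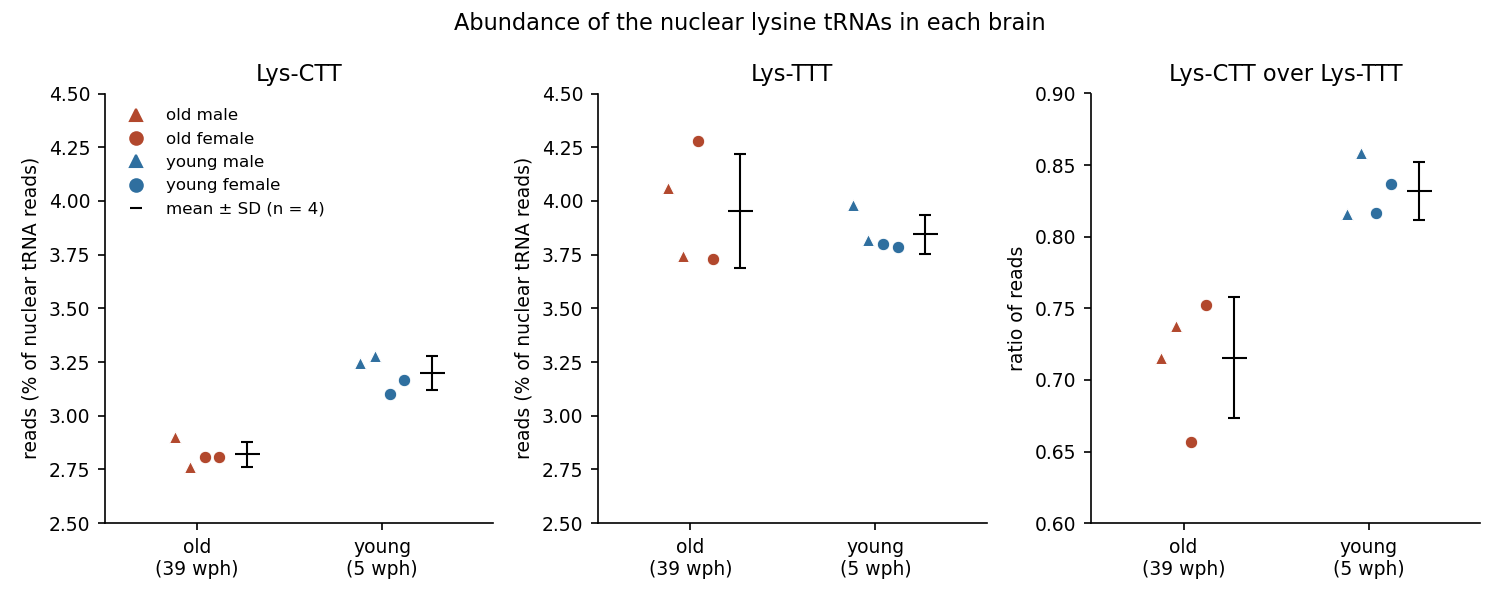
Each point is 1 brain (triangles males, circles females, old left of young), with the mean and SD of 4 brains beside the points. The left and middle panels give the percent of nuclear tRNA reads taken by Lys-CTT and Lys-TTT on axes that start at 2.5%, and the right panel gives Lys-CTT reads over Lys-TTT reads on an axis that starts at 0.6. The ages are apart for Lys-CTT and for the ratio, and overlap for Lys-TTT.

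Together the pair took 6.77 ± 0.295% of nuclear reads in old brains and 7.04 ± 0.146% in young brains (SD, n = 4 each). This difference was not past the threshold (exact permutation test, two-sided, p = 0.229).

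The balance between the anticodons was then compared inside each brain, where no scaling between libraries is needed. There were 0.715 and 0.738 Lys-CTT reads per Lys-TTT read in the old males and 0.657 and 0.753 in the old females, against 0.816 and 0.858 in the young males and 0.817 and 0.837 in the young females. The lowest young brain was above the highest old brain. The mean log2 ratio was lower by 0.22 in old brains, a factor of 0.859, and the exact permutation test gave p = 0.0286, the smallest that 4 against 4 brains allow. Put as a share, Lys-CTT was 41.7 ± 1.45% of lysine tRNA reads in old brains and 45.4 ± 0.598% in young brains (SD, n = 4 each). The log2 difference was −0.20 between the males and −0.23 between the females. Leaving out any 1 brain kept it between −0.24 and −0.18. Counting error was far smaller, with a standard error of the log2 ratio of at most 0.013 in a brain.

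The same balance was tested for nuclear anticodons against the rest of their amino acid, in 33 tests over the 12 amino acids with several tested anticodons, with a family of 2 anticodons entered once. Lys-CTT against Lys-TTT had a log2 change of −0.22 (SE 0.08), with an unadjusted p of 0.0134 and an edgeR adjusted p of 0.0719. No anticodon passed the threshold with edgeR (0%) or with limma, while 9 of the 33 (27.3%) had an unadjusted p below 0.05 with edgeR. The ages did not overlap for 18.2% of the 33 balances, so that the separation seen for lysine was shared with 5 other anticodons. These balances are not all separate, since in larger families each anticodon is part of the rest for the others. Leu-CAG (−0.45) and Leu-CAA (0.23) were both among the 5. Without old female 2 the lysine balance passed (edgeR adjusted p = 0.0282, with 11 of 33 called). It did not pass in any other fit that left out a brain (edgeR adjusted p up to 0.196).

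The ratio was also divided by the 3′ end of the read, and the ages were apart among charged molecules. Among reads ending in CCA there were 0.674, 0.702, 0.688 and 0.691 Lys-CTT reads per Lys-TTT read in the 4 old brains, against 0.807, 0.843, 0.799 and 0.799 in the 4 young brains. These old values span a narrow range and lie well below the young ones. The log2 difference was −0.24 (exact permutation p = 0.0286, or 0.114 adjusted over the 4 end classes, which were compared after the data had been seen).

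Among reads ending in CC the ratio was 0.776, 0.816, 0.752 and 0.899 in old brains, against 0.850, 0.912, 0.881 and 0.938 in young brains. Old female 2 lay among the young brains, and the difference of −0.15 was not past the threshold (exact permutation p = 0.0857, adjusted 0.152). Reads ending in C alone differed by −0.15 (exact permutation p = 0.4) and reads with none of these ends by −0.26 (exact permutation p = 0.114), both with overlapping ages. In each class the old mean was the lower one. The age difference in CCA reads less that in CC reads was −0.09 (exact permutation p = 0.229). It is the same quantity as the age difference in log2 odds of charging between the anticodons, given below. The classes were not otherwise set against each other.

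**Figure D2:**
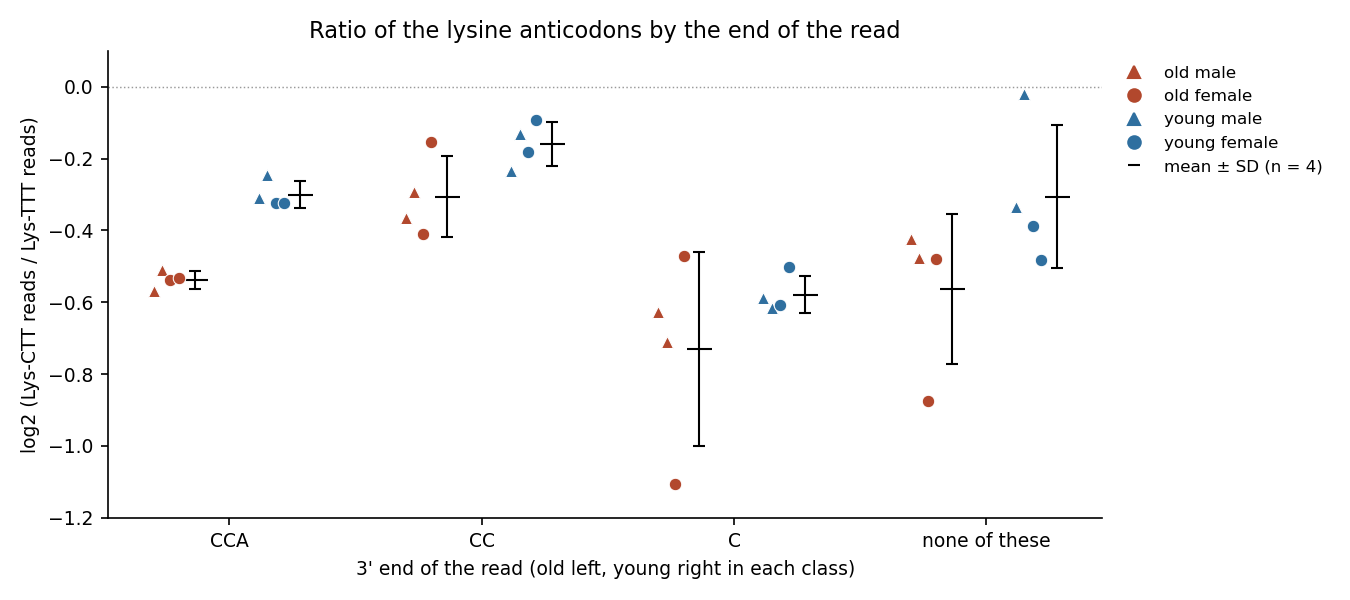
The vertical axis is the log2 ratio of Lys-CTT to Lys-TTT reads, and each point is 1 brain (triangles males, circles females), with the mean and SD of 4 brains. Reads are divided by their 3′ end, old left of young in each class. The ages are apart in reads ending in CCA and overlap in the 3 other classes.

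Reads ending in CCA are part of the reads in the balance of all reads, so the fits are not independent. Counted on CCA reads alone, a choice added after the data had been seen, the lysine balance had the smallest p of the 33. It changed by −0.24 on the log2 scale (SE 0.05, edgeR adjusted p = 0.0111). The test called 4 balances of 33 (12.1%), the others being Leu-CAG, Glu-CTC and Ile-AAT. The ages did not overlap in 15.2% of the 33. Leaving out 1 brain kept the lysine change between −0.25 and −0.22 with an adjusted p below 0.05 in 7 of 8 fits. Without old male 1 it was 0.0639 and none of the 33 was called. On CC reads alone the lysine change was −0.15 (SE 0.09, edgeR adjusted p = 0.276).

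**Figure D3:**
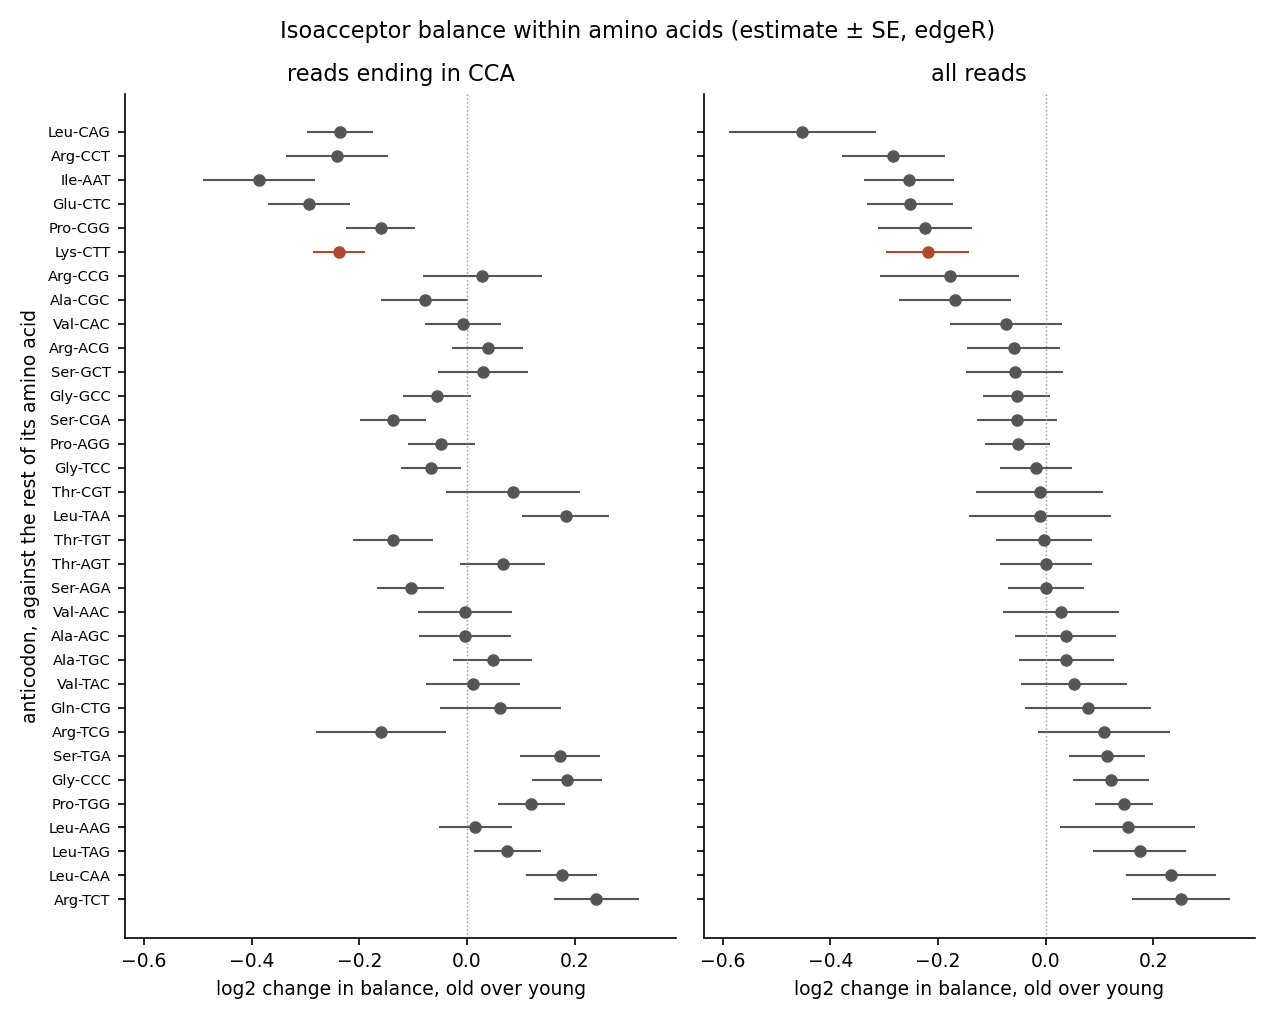
Each row is an anticodon set against the other anticodons of its amino acid, and each point is the log2 change of that balance in old over young brains with its SE, from edgeR. Reads ending in CCA are in the left panel and all reads in the right panel, ordered by the right panel, with Lys-CTT in red. Lys-CTT lies at −0.24 among CCA reads and at −0.22 among all reads, where other anticodons reach larger changes on both sides.

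The same CCA reads were also set against all nuclear CCA reads, which is not a separate count. In the charged pool, Lys-CTT held a smaller share of the nuclear CCA reads of old brains. It made up 3.05, 2.82, 3.36 and 2.94% of nuclear CCA reads in the 4 old brains, against 3.44, 3.53, 3.37 and 3.41% in the 4 young brains. The ages did not overlap, though old female 1 came close to the lowest young brain, and 14.9% of the 47 anticodons were separated in this way. The log2 difference was −0.18 (exact permutation p = 0.0286, and 0.0571 without any 1 of the young brains). Per spike-in read it was −0.45 (exact permutation p = 0.114). Lys-TTT made up 4.53, 4.02, 4.88 and 4.26% of nuclear CCA reads in old brains, against 4.26, 4.18, 4.21 and 4.27% in young brains, with the old brains on both sides of the tightly grouped young ones (log2 difference 0.06, exact permutation p = 0.4, and −0.21 per spike-in read). The sum of both was 7.46 ± 0.595% in old brains and 7.67 ± 0.062% in young brains (SD, n = 4 each; exact permutation test on the log2 share, p = 0.486).

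Charging was next compared for each anticodon on its own. The charged share of Lys-CTT was 52.1, 54.6, 45.8 and 65.5% in the old brains (males, then females), against 72.6, 62.1, 70.3 and 62.6% in the young brains. The other old brains lay below all young ones, but old female 2 lay among the young brains. Means were 54.5 ± 8.20% in old brains and 66.9 ± 5.34% in young brains (SD, n = 4 each). They differed by −12.4 points (exact permutation p = 0.0857).

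Lys-TTT followed the same order of brains. Its charged share was 55.6, 58.3, 48.0 and 71.2% in the old brains, against 73.6, 63.9, 72.3 and 66.3% in the young brains. Means were 58.3 ± 9.64% in old brains and 69.1 ± 4.68% in young brains (SD, n = 4 each). They differed by −10.8 points (exact permutation p = 0.0857). Reads ending in CCA or CC numbered 19969 to 75653 for Lys-CTT and 23001 to 97859 for Lys-TTT, and the 95% Wilson intervals reached at most 0.673 and 0.621 points to either side. These intervals cover counting error only. They treat each read as a separate molecule, which cannot be checked, since the reads carry no molecular identifiers.

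Across all nuclear anticodons the edgeR test called neither. The log2 odds of charging changed by −0.76 (SE 0.36) for Lys-CTT and by −0.67 (SE 0.36) for Lys-TTT, with an adjusted p of 0.123 for both, and 1 of the 47 anticodons (2.13%) was called, while 18 (38.3%) had an unadjusted p below 0.05. Without old female 2 the edgeR adjusted p was 0.00623 for Lys-CTT and 0.00702 for Lys-TTT, and 38 of 47 anticodons were called. Old female 2 was the only old brain among the young ones, so the ages of each charged share were then apart. The exact permutation p was 0.0286, the smallest that the remaining brains allow, and follows from which brain was left out. Neither lysine anticodon was called in any other fit that left out a brain. Without old female 1 the edgeR adjusted p was 0.354 for Lys-CTT (−0.59) and 0.366 for Lys-TTT (−0.47). With every brain in the fit, all 47 estimates were negative, with a median of −0.69. The anticodons were read in the same brains, so the number called is not a number of separate results. The edgeR fit shares its estimate of spread across anticodons. A shift common to a brain can therefore make its p-values too small, and the exact test over brains does not have this limit. The entries of the 3′ end table gave the same lysine estimates, with neither called and 1.52% of the 66 called.

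**Figure D4:**
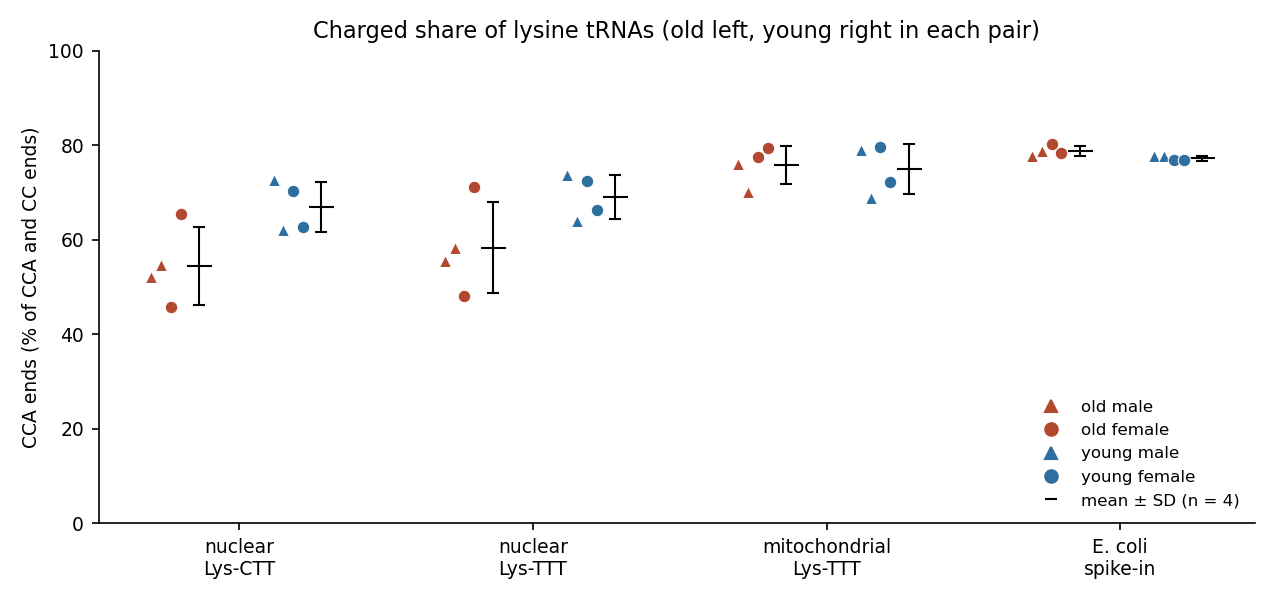
The vertical axis is the share of CCA ends among CCA and CC ends in percent, from 0 to 100. Each point is 1 brain (triangles males, circles females) with the mean and SD of 4 brains, old left of young for nuclear Lys-CTT, nuclear Lys-TTT, mitochondrial Lys-TTT and the E. coli spike-in. Old female 2 is the old circle that lies among the young brains for the nuclear pair, and the ages are mixed for the mitochondrial tRNA. The spike-in was added after oxidation with a set share of CCA ends, so it cannot follow charging in the fish.

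Charging of the lysine tRNAs was then compared with that of the tested nuclear anticodons as a whole, the lysine anticodons included. Set against the median log2 odds of the 47 anticodons in the same brain, Lys-CTT differed by −0.07 between old and young brains (exact permutation p = 0.429) and Lys-TTT by 0.02 (exact permutation p = 0.857). With the mean in place of the median the Lys-CTT value was −0.12 (exact permutation p = 0.114) and the Lys-TTT value turned in sign (−0.027). Leaving out 1 brain moved the Lys-CTT value between −0.11 (without old female 1) and −0.013 (without old male 2). By mean charged share Lys-CTT ranked 26 of 47 in old brains and 24 in young brains, between Trp-CCA and Arg-CCG (old) or Trp-CCA and Thr-AGT (young). Lys-TTT ranked 19 in old brains, between Val-AAC and Thr-CGT, and 16 in young brains, between Gly-CCC and Ala-AGC. These neighbors were picked as the next anticodons in that order, so their closeness to the lysine tRNAs is not a result.

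Within a brain, Lys-CTT was always the less charged of the pair. The difference in charged share was −3.50, −3.69, −2.21 and −5.70 points in the old brains, against −1.03, −1.82, −1.99 and −3.68 points in the young brains. It was negative in 8 of 8 brains, with a mean of −2.95 points, and −0.19 on the log2 odds scale (SD 0.096, exact sign-flip test, p = 0.0078, the smallest that 8 brains allow). Other pairs of anticodons were not compared in this way, so a steady gap is not shown to be particular to lysine. The gap averaged −3.77 ± 1.44 points in old brains and −2.13 ± 1.11 points in young brains (SD, n = 4 each; exact permutation p = 0.0857), and the age difference in log2 odds was −0.09 (exact permutation p = 0.229). That difference was −0.046 with all 4 end classes in the denominator (exact permutation p = 0.657) and −0.042 without old female 2. The value of −0.09 is also the age difference of the log2 ratio in CCA reads less that in CC reads, not a separate result. Counting all 4 end classes in the denominator, the mean gap was −0.10 (exact sign-flip test, p = 0.0547), and old female 1 had the opposite sign.

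Other ends of the lysine tRNAs were also more frequent in several old brains. Reads ending in C alone, which lack a further base and stand outside the charged share, made up 9.64, 8.10, 17.4 and 5.03% of Lys-CTT reads in old brains, against 2.93, 4.99, 3.88 and 6.28% in young brains. For Lys-TTT they made up 10.6, 9.75, 24.6 and 5.22% in old brains, against 3.57, 6.54, 4.82 and 7.42% in young brains. Old female 1 was the highest for both and old female 2 lay among the young brains for both.

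The exact permutation test gave p = 0.0571 for Lys-CTT and p = 0.0857 for Lys-TTT. With edgeR the log2 odds of such an end were higher by 1.16 (SE 0.59) and 1.11 (SE 0.60), adjusted p = 0.131 for both. None of the 47 anticodons was called with edgeR (0%) or limma, and 4 (8.51%) had an unadjusted p below 0.05 with edgeR. Without old female 2, 46 of 47 were called, and the adjusted p was 0.0127 for Lys-CTT and 0.0134 for Lys-TTT. As for charging, these anticodons share the same brains, so the calls are not separate results and the edgeR p-values can be too small. Neither was called in any other fit that left out a brain (edgeR adjusted p up to 0.316 for both).

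Reads with none of the 3 ends stayed rare, at 1.55, 1.02, 2.16 and 1.09% of Lys-CTT in old brains, against 0.684, 0.998, 0.703 and 0.851% in young brains. They made up 1.48, 1.04, 2.60 and 1.14% of Lys-TTT in old brains, against 0.701, 0.866, 0.748 and 0.991% in young brains. Old brains lay above young ones for both anticodons (exact permutation p = 0.0286 each), as they did for 40.4% of the 47 anticodons in one direction or the other. In the spike-in, added after oxidation, ends in C made up 1.55 to 1.95% in old brains and 1.57 to 1.87% in young brains. The part of RNA quality in the ends of the lysine tRNAs was not tested.

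**Figure D5:**
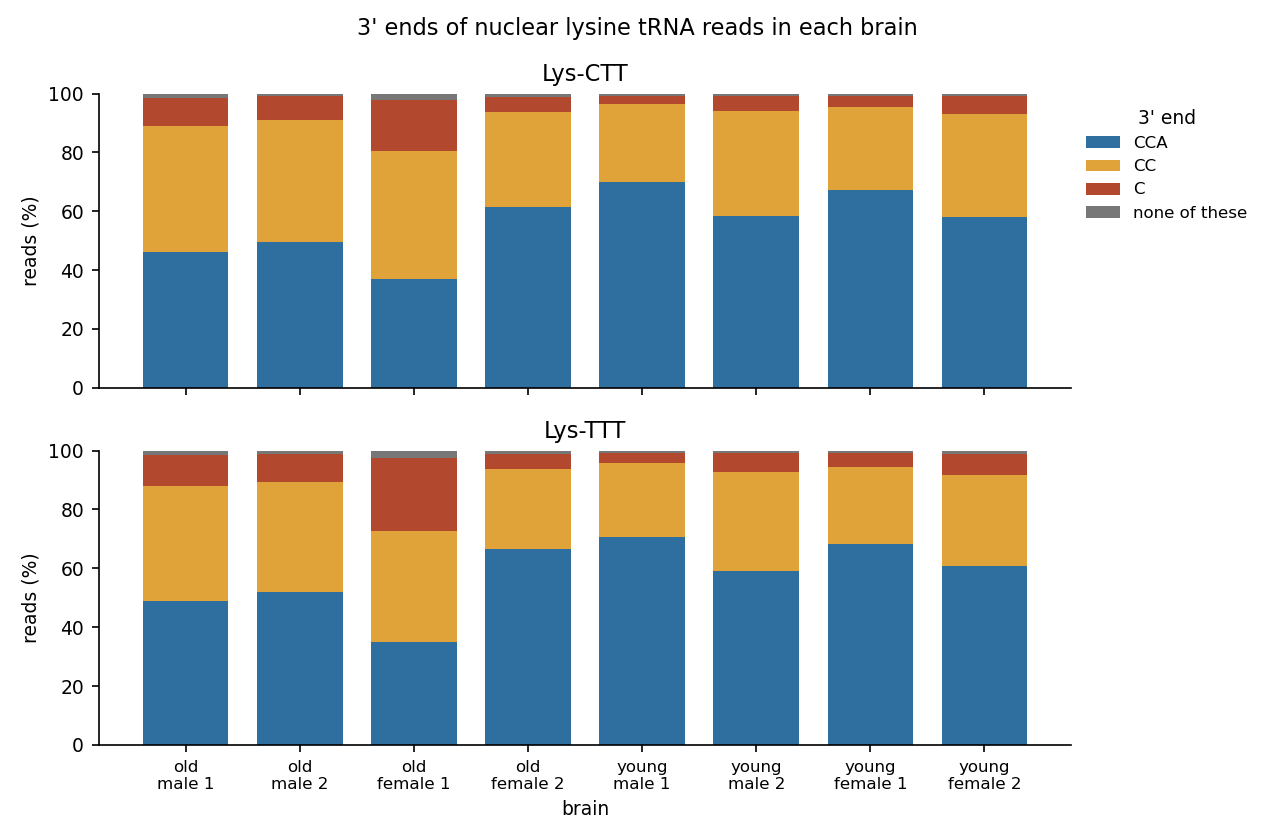
Each bar is 1 brain, old brains at the left, and divides the reads of Lys-CTT (top) or Lys-TTT (bottom) into the 4 kinds of 3′ end, in percent. Ends in C are largest in old female 1, at 17.4% for Lys-CTT and 24.6% for Lys-TTT, and the bars of old female 2 resemble those of the young brains.

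The spike-in is itself a lysine tRNA, E. coli tRNA-Lys with the anticodon TTT, made with 75% CCA ends. Its CCA share was 77.6 to 80.3% in old brains and 76.8 to 77.6% in young brains. Since it was added after oxidation, that share cannot follow charging in the fish. It gave 13.5 to 19.3 reads per 100 nuclear Lys-TTT reads in old brains and 13.5 to 21.8 in young brains. Whether reads were exchanged between these similar names in alignment was not tested.

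Mitochondrial Lys-TTT, encoded in the mitochondrial genome and charged by a form of the same synthetase in humans, was set beside the nuclear pair. It took 5.80, 5.62, 5.48 and 5.55% of mitochondrial tRNA reads in old brains, against 5.88, 7.29, 6.40 and 6.58% in young brains, lower in old brains without overlap (−0.925 points, exact permutation p = 0.0286). Of the 22 mitochondrial anticodons that passed the filter, 54.5% did not overlap. In the edgeR fit over nuclear and mitochondrial anticodons together its log2 change was −0.11 (SE 0.09, adjusted p = 0.368).

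Its charged share was 76.0, 70.2, 77.5 and 79.4% in old brains, against 79.0, 68.8, 79.6 and 72.2% in young brains, with the ages mixed (0.889 points, exact permutation p = 0.886). Nuclear Lys-TTT was below it in every brain, with a nuclear minus mitochondrial difference of −20.5, −11.9, −29.5 and −8.20 points in old brains, against −5.33, −4.83, −7.30 and −5.86 points in young brains. Every old brain had a wider gap than every young brain (exact permutation p = 0.0286). This gap, examined after the data had been seen, was separated by age for 31.2% of the 16 anticodons with enough reads in both compartments.

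Related groups of tRNAs were set beside lysine, and all but the arginine group hold the lysine anticodons themselves. Among the 5 nuclear arginine anticodons, the other basic amino acid with several anticodons, 0 were called in abundance, with a median log2 change of −0.09, where 6.38% of all 47 were called in either direction. Of the 24 tested anticodons served by synthetases of the multisynthetase complex (lysine included), 2 were called lower in old brains, Lys-CTT and Leu-CAG, against 4.26% of all 47, where these are also the only anticodons called lower. The median of the 24 was −0.04. Of the 4 anticodons of class IIb synthetases (aspartate, asparagine and lysine), Lys-CTT was the 1 called. The median over all 47 anticodons was 0.01. For charging, the median change in log2 odds was −0.81 for arginine, −0.71 for the complex and −0.71 for class IIb, against −0.69 over all 47, and no member of these lists was called with edgeR, where 2.13% of all 47 were.

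Over the 8 brains, the anticodons other than lysine whose log2 share of nuclear reads ran most like that of Lys-CTT were Gly-TCC (Pearson r = 0.802), Leu-CAG (0.767) and Ile-AAT (0.713). For Lys-TTT they were Phe-GAA (0.878), Val-TAC (0.793) and Ala-TGC (0.623). The correlation between the 2 lysine anticodons was −0.160. In charging, after the median of each brain was removed, Lys-CTT ran most like, outside lysine, Gly-GCC (0.850), Ile-AAT (0.631) and Arg-ACG (0.616). Lys-TTT ran most like Ile-AAT (0.890), Gly-GCC (0.880) and Gly-TCC (0.783). The 2 lysine anticodons correlated at 0.676, which for Lys-CTT lies between Gly-GCC and Ile-AAT. These are descriptions over 8 values that share libraries, depth and the age contrast.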

How the data were processed

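tRNA-seq counts of 8 killifish brains were used. Trimming with cutadapt 3.5 and alignment and counting with mim-tRNAseq were done by the authors, who deposited raw counts per anticodon and per transcript and 3′ end. Reads were aligned to tRNA genes of the GRZ strain, whereas the fish were MZM-0410, and near-identical genes were counted as 1 cluster. All per-sample columns were used. The sample labels give no library batch.

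For abundance, edgeR 4.0.16 was run with TMM and age as the factor (quasi-likelihood test, features with 10 or more counts in 4 or more samples). Charging, ends in C and isoacceptor balance were tested with edgeR on 2 columns of counts per brain and 1 effect per brain, for anticodons with at least 100 CCA and CC reads in every brain (charging and ends). Adjusted p-values are Benjamini-Hochberg values over all features tested, with a threshold of 0.05. For values per brain the ages were set against each other by exact permutation, two-sided, over 70 relabellings, or fewer when a brain was left out. Their p-values are not adjusted: of 74 quantities compared, many of them related, the smallest adjusted p would be 0.117. Log2 odds had 0.5 added to each count. The scripts were checked on simulated data. R 4.3.3, limma 3.58.1, DESeq2 1.42.0, Python 3.11.15, numpy 2.4.6, pandas 2.3.3 and scipy 1.17.1 were used.

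The members, lists and tests were chosen with earlier results of these data known. Alternatives were DESeq2, limma, other filters and library sizes, sex or replicate number as a factor, all end classes in the denominator, spike-in scaling and leaving out each brain. Division of the ratio and balance by end class and the gap to the mitochondrial tRNA were added after seeing the data. tRNAs were named by rule: the lysine tRNAs, the 3 most correlated anticodons in each measure and the neighbors in rank. Leu-CAG, Glu-CTC and Ile-AAT in the balance of CCA reads were named after their values were seen. So were Leu-CAG and Leu-CAA in the balance of all reads.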

Additional observations from a re-analysis of the deposited data

Results flagged for a closer look

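Lys-TTT took 3.98% of nuclear tRNA reads in young male 1, apart from the 3.78 to 3.82% of the 3 other young brains. The gap was 0.830 of the range of the 4 values, just past Dixon's critical value at the 95% level. Among 30 groups of 4 brains examined in this way it was the single one past that value, where chance gives about 1 in 20.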

How the results depend on the processing

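Of the counts of calls, the abundance of anticodons (3 of 47) became 6 with DESeq2, 16 of 69 with mitochondrial tRNAs in the fit and among those tested, and 0 with spike-in reads as library size, where Lys-CTT changed by −0.053. Lys-CTT kept its call with DESeq2. Charging called 0 transcripts with all 4 end classes. By end class, the lysine ratio was −0.15 for CC, −0.15 for C and −0.26 for neither of these nor CCA. On CCA reads 4 of the 33 balances were called (lysine −0.24), and 7 without old female 2 (lysine −0.24). Per spike-in read, charged Lys-CTT differed by −0.45 (exact permutation p = 0.114) and charged Lys-TTT by −0.21, turned in sign. Charging of Lys-TTT against all tested nuclear anticodons turned in sign with the mean (−0.027) and with all 4 end classes (−0.0063). So did the charged share of mitochondrial Lys-TTT with all 4 end classes (−0.473 points). The gap between the anticodons in charging was −0.10 with all 4 end classes. The cause was not tested for any of these.

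Old and young fish with the same sex and number are different animals, and not every pair deviated together. Correlations of their deviations ran from −0.366 to 0.197 in share of reads and from −0.283 to −0.169 in charging, apart from 0.793 for the pair female 2 in charging. With the replicate block, 1 anticodon and 0 transcripts were called in abundance, with −0.18 for Lys-CTT (adjusted p = 0.0900) and −0.18 for Lys-CTT-1 (adjusted p = 0.0667), and 0 anticodons and 0 transcripts in charging. The exact sign-flip test over the 4 pairs cannot go below 0.125, which it gave for the ratio (−0.22), charged Lys-CTT (−0.18) and the mitochondrial share of reads (−0.925 points).

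Leaving out 1 brain at a time, calls ran from 0 to 8 anticodons and from 0 to 12 transcripts in abundance, from 0 to 11 balances, from 0 to 38 anticodons and from 0 to 52 transcripts in charging, and from 0 to 46 anticodons for ends in C. The highest counts came without old female 2. On the log2 scale the ranges were −0.19 to −0.17 for Lys-CTT abundance, −0.19 to −0.17 for Lys-CTT-1, −0.00021 to 0.067 for Lys-TTT abundance (below 0 without old female 1) and −0.24 to −0.18 for the balance and −0.24 to −0.18 for the ratio. For the log2 odds of charging they were −0.98 to −0.59 for Lys-CTT and −0.94 to −0.47 for Lys-TTT, with the same ranges for their transcripts. For ends in C they were 0.81 to 1.48 and 0.65 to 1.51. The charged shares differed by −16.1 to −9.55 points (Lys-CTT) and −15.1 to −7.38 points (Lys-TTT). The exact permutation p was 0.0286 without old female 2, the smallest that the remaining brains allow, and reached 0.171 (Lys-CTT) and 0.2 (Lys-TTT) in the other fits. The log2 share of the charged pool differed by −0.23 to −0.14 for Lys-CTT and by −0.091 to −0.0022 for both together (−0.091 without old female 1, exact permutation p = 0.0286). Charged Lys-CTT had a p of 0.0571 (exact permutation) without any 1 of the young brains. The age difference of the gap between the anticodons ran from −0.13 to −0.042 (without old female 2). Charging of Lys-CTT against all tested nuclear anticodons ran from −0.11 to −0.013. For Lys-TTT it ran from −0.056 (without old female 2) to 0.083 and was −0.01 without young male 2. Mitochondrial Lys-TTT ran from −1.15 points (without young male 2) to 2.76, with −0.304 without old female 2 and −0.0156 without young female 2, and its share of reads from −1.14 to −0.673 points (exact permutation p = 0.0571 without any 1 of the old brains).

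Over all results and alternatives, 255 values kept their direction and their side of the threshold (counts of calls within 1.5 times). Of the rest, 29 lost the threshold, 12 passed it, 30 moved by more than these limits and 10 turned in sign. Counting error is small at these depths, and the 4 brains per age limit the tests.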
